A study of Mus musculus with 12 samples.

Results

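Myelin in the hippocampus was followed through 9 genes of the mature oligodendrocyte (Mbp, Mobp, Mog, Mag, Cnp, Mal, Opalin, Ermn and Cldn11), which were taken by name from the 22236 genes of the count table. No measured value entered that rule, but the members were chosen with earlier results of these data known. All 9 were present, and all 9 were among the 15853 genes that passed the filter on low counts. The data are mRNA sequencing of whole hippocampal homogenates from 12 male mice aged 3 to 5 months. The C57BL/6J (B6) and DBA/2J (D2) strains each contributed 3 mice injected in both hippocampi with an AAV9 virus carrying a short hairpin RNA against Hp1bp3 (KD) and 3 mice given a scrambled hairpin (Ctrl), and tissue was taken at least 6 weeks after injection. Every animal, the controls included, therefore carried a viral vector. The promoter and the cell types reached by the virus are not given in the sources used here, and B6 and D2 reads were mapped to different, strain-specific references, so strain and reference genome cannot be told apart.

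Oligodendrocytes wrap axons in layers of their own membrane, and the resulting myelin sheath speeds conduction and supports the axon. The sheath has a compact part, held together by small basic proteins and proteolipids, and a non-compact part of cytoplasm-filled channels and loops. Mature cells express the genes for these proteins very strongly and together, under transcription factors that include SOX10 and MYRF, whereas precursors scarcely express them.

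The libraries held between 18.2 and 39.4 M counts (M, 10 to the power 6), and each member had at least 178 counts in every library. Hp1bp3 itself, the target of the hairpin, had a log2 fold change of -0.54 ± 0.15 (SE) with KD in B6 and of -0.25 ± 0.15 in D2 (adjusted p = 0.0760 and 1 in the quasi-likelihood test of edgeR). Averaged over strains it was at -0.39 ± 0.11 (adjusted p = 0.0907), and it passed without D2 KD 3 (-0.48, adjusted p = 0.0283), without B6 KD 3 (-0.51, adjusted p = 0.0310) and in DESeq2 (adjusted p = 0.00961). The library labelled D2 KD 3 had 6941 normalised read counts of Hp1bp3, inside the D2 Ctrl range of 6504 to 7002, and the D2 comparisons of treatment are therefore also given without it. Markers of the choroid plexus, a tissue that lies against the hippocampus, summed to between 1768 and 153861 normalised read counts per library and were high and low within every group. Schwann cell markers summed to only 98.2 to 195 normalised read counts, and Pmp2 and Dhh, which mark that cell, were at 0 in 5 and 1 of the libraries. The myelin genes measured here were thus accompanied by almost no signal of peripheral myelin.

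The normalised read count used below is the deposited count divided by the size factor of its library. Counted per kilobase of merged exon, Mbp stood highest in B6 Ctrl at 7878 ± 1343 (SD, n = 3). Mobp followed at 3778 ± 730, then Mal at 2345 ± 390, Cnp at 2277 ± 382 and Cldn11 at 1860 ± 381. Mag at 1144 ± 289, Mog at 880 ± 180.0, Ermn at 656 ± 154 and Opalin at 209 ± 55.3 completed the order. Mal, Cnp and Cldn11 were not separated from each other by their SDs. Mag and Mog were not separated either, nor were Mog and Ermn, whereas Mbp, Mobp and Opalin each stood apart from the rest. In D2 Ctrl Mal fell behind Cnp and Cldn11, again within their SDs, and Mobp, at 657 ± 261 per kilobase, stood seventh, between Mog at 730 ± 246 and Ermn at 524 ± 217. With the length of the longest transcript in place of the merged exons, Mobp was second in B6 Ctrl and sixth in D2 Ctrl. The members lie on separate chromosomes but for Mal and Ermn, both on chromosome 2 (127633226 to 127656695 and 58045113 to 58052864, GRCm38, minus strand). Exons of Cnp (chromosome 11, 100574904 to 100591729) overlap those of Dnajc7 on the opposite strand, and exons of Ermn those of Galnt5, and whether counting used the strand is not given in the sources used here. The plot of normalised read counts by library shows each member on its own scale.

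**Figure D1:**
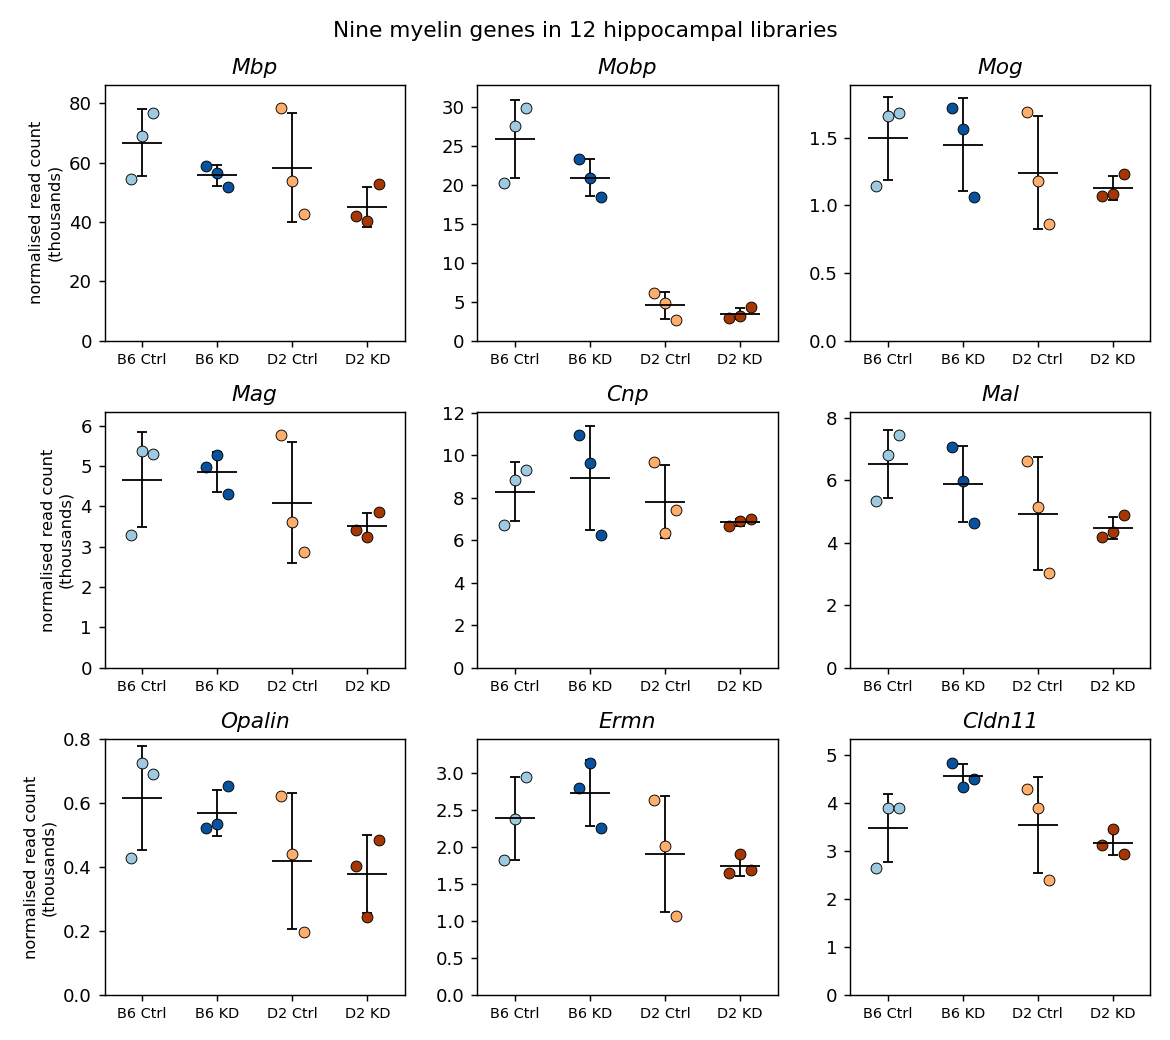
Normalised read count (divided by 1000, axis from 0) of each of the 9 genes in the 12 libraries, by strain and treatment; points are libraries 1, 2 and 3 from left to right within a group, and the bar and whiskers are the group mean and SD (n = 3). All D2 libraries lie far below all B6 libraries for Mobp, between 2569 and 6092 against 18467 to 29809, while the 2 strains overlap in the other 8 genes.

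Mobp encodes a small basic protein of compact central myelin and was the 1 member called between the strains. It had 20249.6, 27558 and 29809 normalised read counts in B6 Ctrl and 23240.5, 20895 and 18467 in B6 KD. In D2 Ctrl it had 6092, 4838 and 2569, and in D2 KD 2906, 3158 and 4268. The strains did not overlap, the lowest B6 library being 3.03-fold above the highest D2 library. The mean in D2 was 17.0% of the mean in B6.

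Fitted over all 12 libraries, Mobp was 5.95-fold lower in D2, a log2 fold change of -2.57 ± 0.20 (SE; edgeR, adjusted p = 3.12e-06). The difference was of similar size under either virus, at -2.53 ± 0.29 among Ctrl (adjusted p = 0.000103) and -2.62 ± 0.29 among KD (adjusted p = 8.56e-05), and the interaction of strain and treatment did not pass (-0.09 ± 0.38, adjusted p = 0.999). In B6 Mobp ranked 117th of all genes tested by CPM (counts scaled to the same library total), a level not corrected for length, and in D2 it ranked 1800th. Of the 117 genes at or above its B6 level, 2, Mobp among them, had a fold change as low. Called genes were common in this comparison: 21.3% of genes passed the threshold between strains, 12.7% of all genes as lower in D2, and against this background 1 of 9 members was called. The 6 D2 libraries lay below the 6 B6 libraries for 9.0% of all genes and for 1 of 9 members. A processed transcript annotated as Gm38642 shares an exon stretch with Mobp on the same strand and was not analysed here.

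The difference in Mobp remained when it was measured against another myelin RNA of the same library. Mbp, whose product joins the inner faces of the myelin membrane, was taken as a reference within each library. For every 100 Mbp counts there were 35.6 to 39.9 Mobp counts in B6 and 6.03 to 8.97 in D2, with no overlap. The ratio was 5.04-fold lower in D2, a log2 difference of -2.33. An exact permutation test with strain exchanged within treatment gave a two-sided p = 0.005, the smallest that its 400 assignments allow. This outcome was fixed in advance and is no further evidence. Mobp was picked as the called member, and Mbp, at 40393 to 78361 normalised read counts, varied less than the 3.03-fold gap in Mobp. The plot of Mobp against Mbp shows the strains as separate bands.

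**Figure D2:**
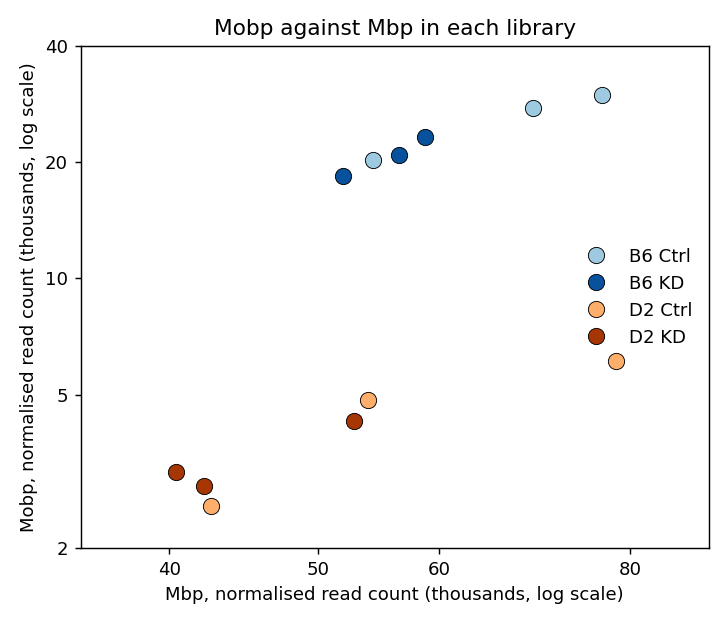
Normalised read counts of Mobp and Mbp in each library (divided by 1000, both axes logarithmic), coloured by strain and treatment. The B6 libraries and the D2 libraries form 2 bands over overlapping ranges of Mbp, 51906 to 76701 in B6 and 40393 to 78361 in D2. The D2 Ctrl library with 78361 Mbp counts had 6092 Mobp counts, and the B6 Ctrl library with 76701 Mbp counts had 29809.

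Mobp lies on chromosome 9 (120149707 to 120181484, plus strand, GRCm38). Within 1000 kb on either side 24 other genes were tested, of which 4 were called lower and 3 higher in D2 (29.2%), with a median log2 fold change of -0.01. The nearest, Rpsa, a ribosomal protein gene, was lower in D2 (-0.31 ± 0.06, adjusted p = 0.00242), and the next, Slc25a38, a mitochondrial glycine carrier, was at 0.01 ± 0.08. Myrip, the nearest gene on the other side, was higher (0.29 ± 0.07, adjusted p = 0.0122). The estimates of the 24 ran from -1.59 for Acaa1a to 1.93 for Acaa1b, 2 genes of peroxisomal fatty acid oxidation.

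The bases upstream of the members are shown because SOX10 and MYRF are known regulators of myelin genes. Of the 9 members, 8 matched a RefSeq promoter (GRCm38.p6, 10 promoters), and the 250 bases before each start were searched on both strands for the letters ACAAAG and ACAATG, which SOX proteins bind, and CTGGNAC, which MYRF binds. The stretches below are of the C57BL/6J reference, run 5′ to 3′ on the strand of the gene and stop short of annotated exon bases, and capitals mark the matches. They are Mobp at chr9:120149492-120149706 (plus strand), the member that differed between strains, and Mag at chr7:30914923-30915172 (minus strand) and Cnp at chr11:100574689-100574903 (plus strand), the members with matches to both kinds of motif.
Mobp: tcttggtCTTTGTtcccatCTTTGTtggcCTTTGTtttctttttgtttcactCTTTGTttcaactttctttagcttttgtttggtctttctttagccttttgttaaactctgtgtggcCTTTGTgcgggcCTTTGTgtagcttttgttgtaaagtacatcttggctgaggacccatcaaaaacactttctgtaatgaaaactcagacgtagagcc
Mag: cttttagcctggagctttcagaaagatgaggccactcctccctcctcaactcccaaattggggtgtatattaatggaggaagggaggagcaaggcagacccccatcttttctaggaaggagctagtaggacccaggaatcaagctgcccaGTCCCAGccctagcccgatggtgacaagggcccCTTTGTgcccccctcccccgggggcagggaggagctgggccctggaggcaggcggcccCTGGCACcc
Cnp: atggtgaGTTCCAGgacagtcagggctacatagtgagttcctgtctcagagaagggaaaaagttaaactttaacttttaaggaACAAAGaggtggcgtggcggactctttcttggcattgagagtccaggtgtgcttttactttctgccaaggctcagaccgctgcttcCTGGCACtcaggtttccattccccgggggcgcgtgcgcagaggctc
Mobp held 6 matches to ACAAAG, all on its opposite strand and between 243 and 115 bases before the start, and none to the other motifs. Among all 32851 promoters of that length 16.5% held ACAAAG at least once, and 1 of them, that of Mobp, held it 6 times or more. Mag and Cnp held ACAAAG once in the windows shown and CTGGNAC 2 times, a motif found in 16.1% of all promoters. Opalin held ACAAAG, Mog held CTGGNAC, Ermn held ACAATG (10.7% of all promoters), and the promoters of Mal and Cldn11 held none of the 3. Any of the 3 motifs was present in 37.2% of all promoters. No D2 sequence was analysed here, and matches of so few letters describe the sequence only.

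The other 8 members had lower estimates in D2 than in B6 when averaged over treatments, and none of them passed the threshold (edgeR, smallest adjusted p = 0.108). Their log2 fold changes ran from -0.24 to -0.59 with a median of -0.33, where the median of all genes was 0.02. All 9 members had an estimate below 0, as did 47.2% of all genes. At an unadjusted p below 0.05 there were 4 of the 9 members, against 30.3% of all genes. In DESeq2 and limma-voom, too, Mobp was the 1 member called.

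Among the genes of compact myelin and its junctions, Mbp had 54333, 69109 and 76701 normalised read counts in B6 Ctrl and 78361, 53952 and 42603 in D2 Ctrl. The strains overlapped, and the highest value of all belonged to a D2 library. Its averaged difference was -0.26 ± 0.15 (adjusted p = 0.270). Mal, a proteolipid that sorts membrane into myelin, ran from 4637 to 7433 in B6 and from 3031 to 6611 in D2 (-0.41 ± 0.17, adjusted p = 0.136). Cldn11, which forms the tight junctions of the sheath, ran from 2655 to 4849 in B6 and from 2405 to 4304 in D2 (-0.26 ± 0.14, adjusted p = 0.259).

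Among the surface proteins, Mag, an adhesion molecule that faces the axon, ran from 3299 to 5367 in B6 and from 2877 to 5762 in D2 (-0.34 ± 0.17, adjusted p = 0.221). Mog, on the outermost membrane, ran from 1063 to 1721 and from 861 to 1691 (-0.32 ± 0.17, adjusted p = 0.252). Opalin, a glycoprotein of the oligodendrocyte membrane, had the second largest estimate of the 9 and also the widest error, with 429 to 728 against 197 to 622 (-0.59 ± 0.26, adjusted p = 0.161). In all 3 the ranges of the strains overlapped.

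Of the proteins of non-compact myelin, Ermn, an actin-binding protein of the outer cytoplasm, had the smallest p among the 8. It had 1826, 2381 and 2947 normalised read counts in B6 Ctrl and 2792, 3140.0 and 2256 in B6 KD. In D2 Ctrl it had 2637, 2008 and 1067, and in D2 KD 1645, 1906 and 1694. The strains overlapped, 3 D2 libraries lying above the lowest B6 library, and the averaged difference was -0.49 ± 0.20 (adjusted p = 0.108). Cnp, the cyclic nucleotide phosphodiesterase of oligodendrocytes, differed by -0.24 ± 0.15 (adjusted p = 0.317).

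**Figure D3:**
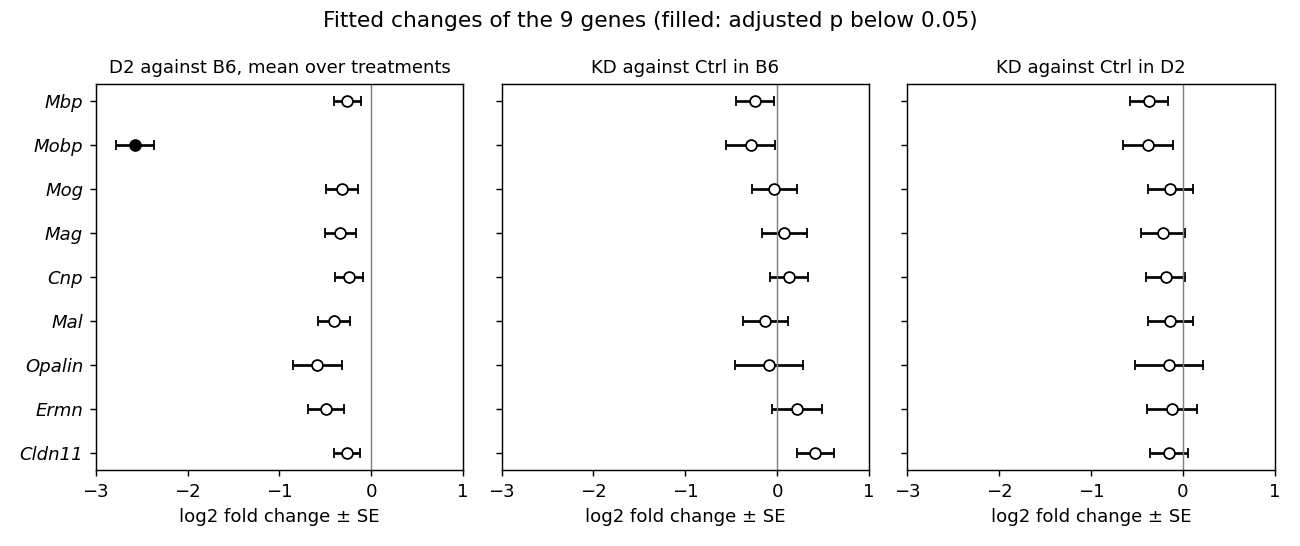
Fitted log2 fold change ± SE of each gene for D2 against B6 averaged over treatments (left) and for KD against Ctrl in B6 (middle) and in D2 (right); filled points passed an adjusted p of 0.05. Mobp between strains, at -2.57, is the only filled point, and the other 8 genes lie between -0.24 and -0.59 in the left panel.

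Single libraries moved these calls. Without D2 Ctrl 1, whose myelin genes were all high, Ermn (-0.64, adjusted p = 0.0346), Mag (-0.49, adjusted p = 0.0345) and Mal (-0.53, adjusted p = 0.0478) passed as well, so that 4 of 9 members were called, beside 2991 of 16035 genes in that fit. Mobp was called in each of the 12 leave-outs, with estimates between -2.70 and -2.43.

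Split by treatment, the other 8 genes had lower estimates under KD than under Ctrl, but no member's interaction passed (0.0% of genes called, with 5.91% of genes and no member at an unadjusted p below 0.05). All 9 interactions were below 0, as were 50.4% of all genes, but their median of -0.13 turned to 0.16 without D2 Ctrl 1 and to 0.018 without B6 Ctrl 1, and was -0.23 without B6 Ctrl 3, -0.27 without B6 KD 3, -0.28 without D2 KD 3 and -0.37 without D2 Ctrl 3. Among Ctrl 14.0% of genes were called and 1 of 9 members, and the median of the 8 was -0.23, with Cldn11 at 0.02 ± 0.20. The median of all 9 among Ctrl, -0.27, was -0.055 without D2 Ctrl 3, -0.13 without B6 Ctrl 3, -0.43 without B6 Ctrl 1 and -0.55 without D2 Ctrl 1, whereas that among KD stayed between -0.53 and -0.41 in the leave-outs. Among Ctrl Mobp alone of the members had all 3 D2 libraries below all 3 B6 libraries, which 17.9% of all genes did. Among KD 15.0% of genes were called and 1 of 9 members, and the median of the 8 was -0.45. In this comparison 6 members (Cldn11, Ermn, Mag, Mbp, Mobp and Opalin) had all 3 D2 libraries below all 3 B6 libraries, a pattern shown by 15.7% of all genes. Cldn11 (-0.54 ± 0.20, adjusted p = 0.106) and Ermn (-0.66 ± 0.28, adjusted p = 0.154) had the smallest p after Mobp there. Both passed when D2 Ctrl 3 was left out (adjusted p = 0.0278 and 0.0375) and when the fit held the KD libraries alone (adjusted p = 0.0178 and 0.0297), beside 2494 of 16075 and 1541 of 15618 genes.

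None of the 9 genes passed the test for knockdown of Hp1bp3, in either strain or on average. Averaged over strains no gene passed in edgeR (0.0% of genes called, 0 of 9 members), while 19.2% of all genes and 0 of 9 members had an unadjusted p below 0.05. In B6 2.64% of genes were called (20.6% had an unadjusted p below 0.05, and no member), and in D2 0.0%, with 2.85% of genes and no member at an unadjusted p below 0.05. Without the library labelled D2 KD 3, 1236 of 16064 genes had an unadjusted p below 0.05 in D2, and 1 gene, no member, was called. DESeq2 and limma-voom called none of the 9 in any of these comparisons. The median log2 fold change of the 9 was -0.08 on average, -0.03 in B6 and -0.15 in D2, where the medians of all genes were within 0.01 of 0. Averaged over strains 7 of 9 members were below 0, as were 48.8% of all genes.

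The largest averaged estimates were those of the basic proteins of compact myelin. Mbp had 58766, 56474 and 51906 normalised read counts in B6 KD and 42115, 40393 and 52787 in D2 KD, so that its KD mean was 83.5% of Ctrl in B6 and 77.3% in D2. KD and Ctrl overlapped in both strains. The averaged fold change was -0.30 ± 0.15 (adjusted p = 0.285). For Mobp it was -0.34 ± 0.19 (adjusted p = 0.370), with KD means at 80.7% and 76.5% of Ctrl. In D2 all 9 estimates were below 0, from -0.38 to -0.12 with every adjusted p at 1, as were 48.7% of all genes. Without the library labelled D2 KD 3 the median in D2 was -0.20, without D2 Ctrl 1 it was 0.10 and without D2 Ctrl 3 it was -0.40. In B6 the median was -0.22 without B6 Ctrl 1 and 0.12 without B6 KD 3.

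Cldn11 went the other way in B6. It had 2655, 3889 and 3892 normalised read counts in B6 Ctrl and 4849, 4343 and 4514 in B6 KD, the KD mean being 131% of Ctrl. The 3 KD libraries lay above the 3 Ctrl libraries, which 13.9% of all genes did, and the fold change was 0.42 ± 0.20 (adjusted p = 0.272). In D2 it had 4304, 3904 and 2405 in Ctrl and 3121, 3455 and 2947 in KD, which overlapped (-0.15 ± 0.20, adjusted p = 1). No other member separated KD from Ctrl in B6, and none did in D2, where 5.96% of all genes did. Ermn (0.21 ± 0.28), Cnp (0.13 ± 0.21) and Mag (0.08 ± 0.24) also had estimates above 0 in B6, none beyond its error.

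Within groups the 9 genes rose and fell together. Taken as deviations of log2(CPM + 1) from the group mean over 12 libraries, the 36 pairs of members had Pearson correlations between 0.21 and 0.96 with a median of 0.83. Mog and Mal were most alike, and Cnp least like the rest, with a median of 0.58 and its lowest value against Opalin. Libraries share their depth and dissection across all genes, so these values describe and test nothing.

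The members lay on the same side of their group means in many libraries, with the largest deviations in D2 Ctrl. All 9 genes were above the group mean in D2 Ctrl 1, by 0.48 on the log2 scale on average, and all 9 were below it in D2 Ctrl 3, by 0.52. In B6 Ctrl 1 all 9 were below, with a mean deviation of -0.36, and in B6 Ctrl 2 and B6 Ctrl 3 all 9 were above, with 0.14 and 0.22. In B6 KD 1, B6 KD 3 and D2 KD 1 8 of the 9 lay on one side. Over the 12 leave-outs the median correlation of the pairs ran from 0.75 to 0.88. The 9 genes together made up 0.312% to 0.437% of all counts in B6 libraries and 0.214% to 0.373% in D2 libraries. Beside this, D2 Ctrl 3 had the highest summed level of astrocyte markers (236323 normalised read counts, against 139534 to 218934 in the others) and the lowest of hippocampal markers (13443, against 16167 to 22959). Thalamic markers, from a neighbouring region rich in myelin, were also lowest in it (2492, against 2655 to 6412). Their part in the myelin values was not tested. In bulk tissue, fewer oligodendrocytes and less RNA per oligodendrocyte cannot be told apart.

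**Figure D4:**
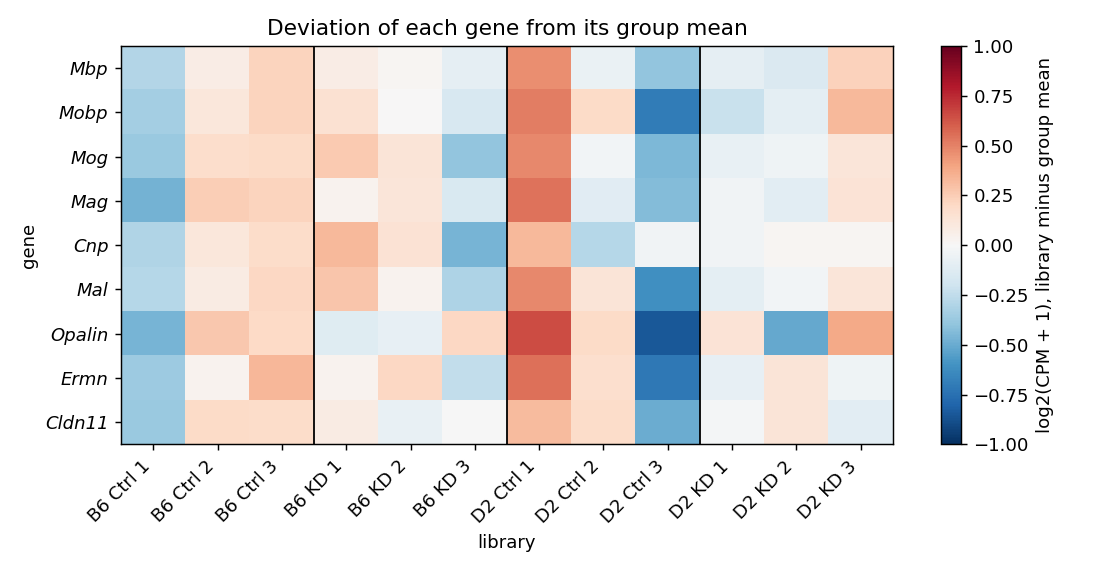
Deviation of each gene from its group mean, in log2(CPM + 1), for the 12 libraries (columns, groups divided by black lines) and the 9 genes (rows); red is above and blue below the mean. The columns of D2 Ctrl 1 and D2 Ctrl 3 have a single colour from top to bottom, with mean deviations of 0.48 and -0.52.

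The genes outside the 9 that followed them most closely included known companions in oligodendrocytes. Ranked by correlation with the mean deviation of the 9 over 12 libraries, the first 10 included Gpr37, Fa2h, Prr18, Aspa, Ppp1r14a, Sh3tc2, Sept4 and Efhd1, with r from 0.98 to 0.95, and 34 of 15844 genes exceeded 0.9 where the median gene had -0.08. Gpr37 is a receptor of myelinating cells, Fa2h hydroxylates the fatty acids of myelin lipids and Aspa releases acetate for lipid synthesis. None of these 8 passed the test between strains, where 21.3% of all genes did, or with KD on average, where no gene did (edgeR).

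Beyond the 9, some other genes of myelin structure and maturity were called between the strains, in both directions. Of 28 on that list 6 were called lower and 2 higher in D2, with a median of -0.26. Over all genes 12.7% were called lower and 8.64% higher. The counts between strains in this and the following lists stand against these shares, and no list was tested as a set. Ninj2, an adhesion protein, was 3.49-fold lower (-1.80 ± 0.32, adjusted p = 0.00169), Gjb1, a gap junction protein of myelin, 2.12-fold lower (adjusted p = 0.000874) and Adamts4, a protease of mature oligodendrocytes, 2.05-fold lower (adjusted p = 0.000331). The level of Ninj2 was low, with means of 33.1 and 48.8 normalised read counts in B6 Ctrl and B6 KD and 11.1 and 11.6 in D2 Ctrl and D2 KD. Car2, a carbonic anhydrase, was higher (0.46 ± 0.11, adjusted p = 0.00835). None of the 28 was called with KD in B6, where 2.64% of all genes were, or on average, where no gene was. In B6 15 of the 28 estimates were above 0 and 13 below. The largest, which did not pass, were those of Klk6 (1.39 ± 0.73, edgeR, adjusted p = 0.311) and Apod (1.17 ± 0.35, adjusted p = 0.0906).

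Enzymes of myelin lipid synthesis had 4 of 10 called lower and none higher. Sptlc2, a subunit of the enzyme that starts sphingolipid synthesis, was lower (-0.82 ± 0.10, adjusted p = 0.000127), as was Elovl1, which lengthens fatty acids (-0.56 ± 0.08, adjusted p = 0.000445). Both enzymes are expressed in many cell types besides oligodendrocytes. Cers2, a ceramide synthase, had a fold change of -0.27 ± 0.09 (adjusted p = 0.0447), a call lost on leaving out any library but B6 Ctrl 1 (adjusted p up to 0.106).

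Of 10 transcription factors of the lineage, 1 was higher and 1 lower in D2. Zfp488, a zinc finger factor, was higher in D2 (0.78 ± 0.08, adjusted p = 1.81e-05), with 7052 to 10293 normalised read counts in B6 and 13442 to 16012 in D2, which did not overlap. Sox10, the factor that defines the lineage, was lower (-0.39 ± 0.11, adjusted p = 0.0318). That call did not hold without B6 Ctrl 2, B6 Ctrl 3, B6 KD 2, B6 KD 3, D2 Ctrl 2, D2 Ctrl 3, D2 KD 1 or D2 KD 2, with adjusted p up to 0.0892.

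Of 9 precursor genes tested 7 had estimates above 0 and 2 below 0 between the strains, and 1 was called in each direction. Cacng4, an auxiliary subunit of glutamate receptors, was 3.99-fold lower in D2 (SE of the log2 fold change 0.13, adjusted p = 4.87e-07), and Pcdh15, a cadherin, was 2.66-fold higher (1.41 ± 0.21, adjusted p = 0.000508). Of 7 genes of newly formed oligodendrocytes 1, Tmem163, was lower (-0.60 ± 0.17, adjusted p = 0.0288), and without B6 Ctrl 1, B6 KD 3, D2 Ctrl 1, D2 Ctrl 3, D2 KD 1 or D2 KD 3 it did not pass (adjusted p up to 0.0750). The medians of these lists were 0.17 and 0.08.

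On the axonal side, Kcna2, a potassium channel found beside the node of Ranvier, had the largest fold change among the called genes of these lists. It ran from 321 to 1227 normalised read counts in B6 and from 6429 to 9302 in D2, a 12.6-fold difference (3.65 ± 0.27, adjusted p = 1.63e-06), and it was the only call among 7 paranodal and axonal genes. Of 8 genes of myelin inhibitor signalling Omg (0.23 ± 0.07, adjusted p = 0.0383) and Rtn4r (0.24 ± 0.08, adjusted p = 0.0466) were higher in D2. Omg was lost on leaving out B6 Ctrl 2, B6 Ctrl 3, B6 KD 2, B6 KD 3, D2 Ctrl 1, D2 Ctrl 2, D2 Ctrl 3 or D2 KD 2 (adjusted p up to 0.0878). Rtn4r was lost without B6 Ctrl 1, B6 Ctrl 2, B6 Ctrl 3, B6 KD 1, B6 KD 2, D2 Ctrl 1, D2 Ctrl 3, D2 KD 1 or D2 KD 3 (adjusted p up to 0.101).

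**Figure D5:**
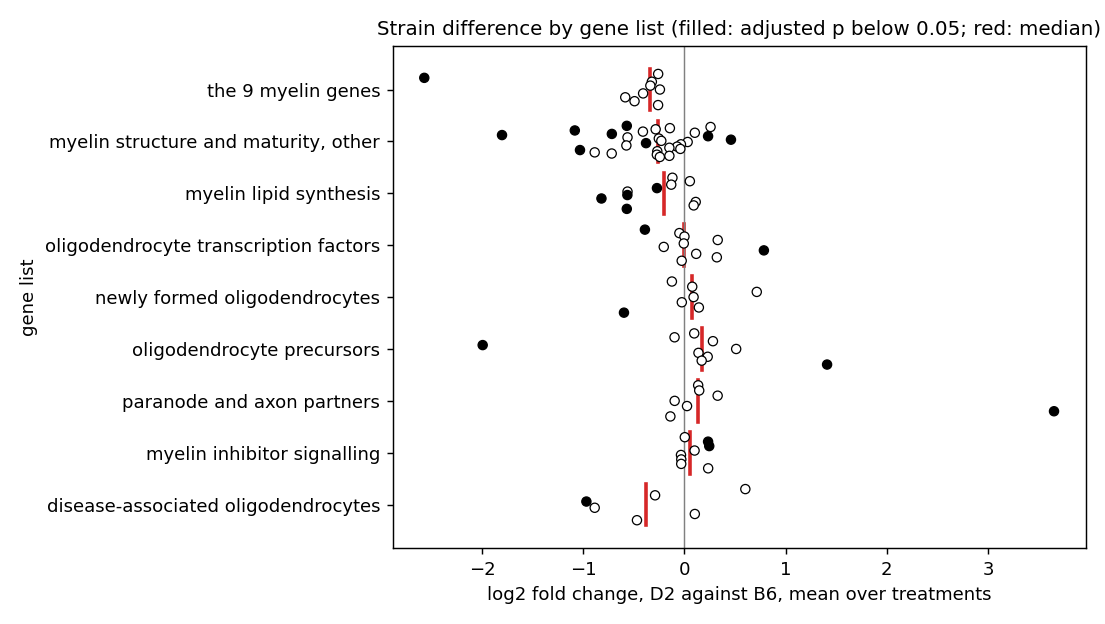
Log2 fold change of D2 against B6, averaged over treatments, for each tested gene of 9 lists (rows); points are genes, filled where the adjusted p was below 0.05, and the red line is the median of the list. Mobp at -2.57 stands apart from the other members, and Kcna2 at 3.65 is the point farthest to the right.

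Among the oligodendrocyte lists, the genes described in diseased tissue had calls for KD in B6. All 6 had estimates above 0, with a median of 2.15, and 2 passed, where 1.76% of all genes were called higher. Serpina3n, a protease inhibitor, ran from 1493 to 1963 normalised read counts in B6 Ctrl and from 7544 to 12255 in B6 KD (6.09-fold, adjusted p = 0.0326). B2m, the light chain of class I major histocompatibility molecules, was 4.71-fold higher (adjusted p = 0.0447). Both genes are also made by reactive astrocytes and microglia. Beside them, 1 of 7 astrocyte markers (smallest adjusted p = 0.0326) and 1 of 7 microglial markers (smallest adjusted p = 0.0420) were also called higher for KD in B6. The summed microglial markers were at 8539 to 10116 in B6 Ctrl and 11697 to 19089 in B6 KD, and the astrocyte markers at 139534 to 166804 and 165011 to 218934. Their part in these calls was not tested. Between the strains, averaged over treatments, 1 gene of the 6, Il33, an alarm cytokine, was called (-0.97 ± 0.16, edgeR, adjusted p = 0.000804). Among Ctrl alone Serpina3n was higher in D2 (1.67 ± 0.34, adjusted p = 0.00568) and Il33 lower (-0.76 ± 0.22, adjusted p = 0.0437). Among KD only Il33 was called, again lower in D2 (-1.18 ± 0.22, adjusted p = 0.00361).

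Neither call held in every setting, and with the choroid plexus markers or the library total as a covariate no gene was called for KD in B6. Serpina3n was lost without B6 Ctrl 1, B6 Ctrl 3, B6 KD 1, B6 KD 2 or D2 Ctrl 1 (adjusted p up to 0.178). B2m was lost without B6 Ctrl 1, B6 Ctrl 2, B6 Ctrl 3, B6 KD 1, B6 KD 2, D2 Ctrl 1, D2 Ctrl 2 or D2 KD 1 (adjusted p up to 0.188).

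Markers of other cell types were compared between the strains as well, averaged over treatments, where 21.3% of all genes were called. Of 7 neuronal, 7 astrocyte and 6 choroid plexus markers none was called, although all 6 choroid plexus estimates were above 0 (median 0.68), and of 7 microglial and 5 endothelial markers 1 each was lower in D2. Markers of the hippocampus had 2 of 6 called lower in D2 and those of the thalamus 1 of 6 lower. Of the 6 thalamic estimates 3 were below 0 and 3 above, with a median of -0.0054 and a lowest of -3.92. The summed thalamic level was 3503 to 6412 normalised read counts in B6 and 2492 to 4649 in D2. Its part in the strain differences was not tested. With the choroid plexus markers as a covariate Mobp remained lower in D2 (log2 fold change -2.55, adjusted p = 9.12e-06).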

How the data were processed

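The authors aligned paired-end reads with RSEM 1.2.12 and Bowtie2 2.2.0 to the genome of the mouse's own strain and deposited expected counts per gene, and a table of normalised counts (a signal scaled by DESeq2 size factors of 0.584 to 1.35). For most libraries 2 sequencing runs had been joined, and which is not stated. Expected counts were rounded and tested with edgeR 4.0.16 (R 4.3.3): TMM scaling, a filter on low counts over the 4 groups, quasi-likelihood F test with robust dispersions and 1 mean per group, Benjamini-Hochberg adjustment over 15853 genes, threshold 0.05. The SE is the fold change over the square root of F. DESeq2 1.42.0 and limma 3.58.1 (voom) were alternatives. Dividing out the size factors gave whole reads for 100.0% of 266784 values (within 0.01 reads), and the same test on these whole reads called 3368 genes between strains. Libraries were scaled to CPM with a pseudocount of 1 for correlations. Replicates are separate mice per the labels and differed beyond sampling noise. All 9 members were named in every comparison. Other list genes were named where called (at most 4 a list, smallest p), with the 10 most alike genes; some of these genes are not reported here. Motif letters were searched in RefSeq promoters, and positions are of GENCODE M21. Members and lists were chosen with earlier results of these data known. The code was tested on simulated data.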

Additional observations from a re-analysis of the deposited data

Results flagged for a closer look

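For Cldn11, the claudin of myelin tight junctions, every KD library in B6 lay above the B6 Ctrl mean and every KD library in D2 lay below the D2 Ctrl mean. The difference between the strains in the effect of KD was -0.57 ± 0.29 (SE) on the log2 scale, D2 minus B6, and it did not pass in the test of the interaction (edgeR, adjusted p = 0.848). Over the 12 leave-outs this difference ran from -0.78 to -0.39.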

How the results depend on the processing

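No paired analysis was possible because the numbers in the titles are unique to each mouse and pair no samples across groups. Mobp was called between strains, on average and under each virus, in all alternatives run and all 12 leave-outs, and no member was called with KD in any. The number of genes called was less stable. With DESeq2 it was 1241 for KD on average (0 with edgeR), 1688 for KD in B6 (418), 1 for KD in D2 (0) and 11 for the interaction (0). The newer quasi-likelihood method called 15 for KD on average. With the library total or, chosen after the data were seen, the choroid plexus markers as a covariate KD in B6 called 0 genes, and with the choroid markers the estimate of Mog there turned to 0.026. With only the KD libraries in the fit, D2 against B6 called 3 members in place of 1 and 1541 genes in place of 2373. Leaving out 1 library at a time, the genes called ran from 0 to 799 for KD on average, from 0 to 790 for KD in B6 and from 0 to 1 for KD in D2. The members called between strains ran from 1 to 4 on average and from 1 to 3 among KD. Estimates of uncalled members changed sign in the same leave-outs. For KD on average Mog ran from -0.19 to 0.041, Mag from -0.19 to 0.076, Cnp from -0.14 to 0.048, Opalin from -0.29 to 0.061 and Ermn from -0.094 to 0.18. For KD in B6 Mog ran from -0.22 to 0.12, Mag from -0.15 to 0.17, Cnp from -0.072 to 0.30 and Opalin from -0.32 to 0.027. For KD in D2 Mog ran from -0.34 to 0.14, Mag from -0.41 to 0.10, Mal from -0.39 to 0.12, Opalin from -0.49 to 0.24 and Ermn from -0.40 to 0.18. The cause was not tested. With 3 mice per group, SEs of 0.14 to 0.26 on the log2 scale limit what could be called between strains among the 8 other members.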

Other observations

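Within B6 the level of Mobp relative to the 8 other members together lay in a narrow range in each treatment group. For every 100 counts of the 8 there were 26.7 to 27.9 Mobp counts in the 3 B6 Ctrl libraries and 24.0 to 25.4 in the 3 B6 KD libraries, with no overlap. In D2 the values ran from 4.25 to 6.32 in Ctrl and from 4.64 to 5.70 in KD, which overlapped. With Mbp alone as the reference B6 Ctrl and B6 KD overlapped, at 37.3 to 39.9 and 35.6 to 39.5 Mobp counts per 100 Mbp counts. Taken gene by gene, KD and Ctrl libraries in B6 did not overlap in CPM for 27.8% of all genes. The ratio to the 8 also moves with those genes, which went both ways in B6. The KD mean of Cldn11 was 131% of Ctrl and that of Mbp 83.5%. The ratios were computed after the values had been seen, and the difference between treatments was not tested. With 3 libraries against 3 an exact permutation test could not go below 0.1.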
